A study of Mus musculus with 32 samples.

Results

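The genes described here are 10 neutrophil granule genes, chosen by their symbols among the 31053 genes counted in the series, and all 10 were found. *Mpo* (myeloperoxidase), *Elane* (neutrophil elastase), *Prtn3* (proteinase 3) and *Ctsg* (cathepsin G) encode proteins of primary, or azurophil, granules. *Camp* (the cathelicidin antimicrobial peptide), *Ngp* (neutrophilic granule protein), *Ltf* (lactoferrin) and *Lcn2* (lipocalin 2, which binds bacterial iron carriers) encode proteins of secondary, or specific, granules. *S100a8* and *S100a9* encode the subunits of calprotectin, which neutrophils hold mainly in the cytosol. The cells were bone marrow-derived stromal cells from femurs of Diversity Outbred (DO) mice of the Jackson Laboratory, an outbred population, after culture under osteogenic conditions (BMSC-OBs). Cells of 4 or 5 mice were pooled after culture, and each of 16 pools was loaded as 1 library for single-cell RNA-seq (scRNA-seq) and sequenced in 2 runs, giving 32 samples. No pool was treated and none served as a control; comparisons were therefore made between cell classes and across pools, and a pool mixes mice, whose age and sex the labels used here do not give.

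Granulocytes mature in marrow through stages that fill different granules in turn. Promyelocytes transcribe the primary granule genes, myelocytes and metamyelocytes transcribe the secondary granule genes, and the stored proteins outlast the transcripts, so a mature neutrophil carries myeloperoxidase but little *Mpo* mRNA. In droplet-based scRNA-seq, RNA released by broken cells enters droplets that hold other cells, and the abundant transcripts of granulocytes are a common source of such free RNA.

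The genes lie on 6 chromosomes of GRCm38. *Prtn3* (chromosome 10, 79874476 to 79883174, plus strand) and *Elane* (79886247 to 79888215, plus strand) are neighbors 3.07 kb apart, and *S100a8* (chromosome 3, 90668978 to 90670035) and *S100a9* (90692632 to 90695721) are 22.6 kb apart on opposite strands. *Camp*, *Ngp* and *Ltf* share chromosome 9, where 570 kb and 596 kb separate them. *Mpo* is on chromosome 11 (87793581 to 87804413), *Ctsg* on chromosome 14 (56099881 to 56102574) and *Lcn2* on chromosome 2 (32384633 to 32388252). *Mpo* overlaps the antisense gene *Gm11505*, and *Prtn3* overlaps *Plppr3* on the other strand.

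The primary granule genes moved opposite to *Ltf* and *Lcn2* below, which for the primary granule genes follows from how cells were selected. Promoters are shown for 3 of the 4 primary granule genes (not *Ctsg*) and for *Ltf* and *Lcn2*, the secondary granule genes that took no part in selecting cells. Each runs 5′ to 3′ from 250 bases before to 50 bases after the RefSeq start of GRCm38.p6, and capitals mark matches on either strand to GAGGAAGT, a PU.1 motif, or TTNNGCAA, a C/EBP motif. PU.1 and C/EBP factors drive myeloid gene expression. The intervals are chr11:87793534-87793833 (plus strand) for *Mpo*, chr10:79886062-79886361 (plus) for *Elane*, chr10:79879417-79879716 (plus) for *Prtn3*, chr9:111019042-111019341 (plus) for *Ltf* and chr2:32387690-32387989 (minus) for *Lcn2*. The RefSeq starts lie inside the GENCODE genes, by 21 bases for *Ltf*, 65 for *Elane*, 203 for *Mpo*, 513 for *Lcn2* and 5191 for *Prtn3*, so the *Prtn3* window is not at the outer end of the annotated gene.
Mpo: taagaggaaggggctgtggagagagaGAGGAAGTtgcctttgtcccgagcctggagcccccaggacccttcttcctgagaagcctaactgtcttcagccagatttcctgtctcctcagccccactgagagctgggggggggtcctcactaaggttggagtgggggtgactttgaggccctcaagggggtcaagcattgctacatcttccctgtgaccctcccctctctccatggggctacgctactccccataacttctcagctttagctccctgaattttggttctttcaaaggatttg
Elane: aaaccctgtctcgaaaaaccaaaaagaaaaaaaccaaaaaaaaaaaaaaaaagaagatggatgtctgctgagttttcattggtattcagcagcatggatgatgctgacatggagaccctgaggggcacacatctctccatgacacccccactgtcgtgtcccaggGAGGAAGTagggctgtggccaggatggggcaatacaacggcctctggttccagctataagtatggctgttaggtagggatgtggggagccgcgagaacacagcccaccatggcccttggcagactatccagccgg
Prtn3: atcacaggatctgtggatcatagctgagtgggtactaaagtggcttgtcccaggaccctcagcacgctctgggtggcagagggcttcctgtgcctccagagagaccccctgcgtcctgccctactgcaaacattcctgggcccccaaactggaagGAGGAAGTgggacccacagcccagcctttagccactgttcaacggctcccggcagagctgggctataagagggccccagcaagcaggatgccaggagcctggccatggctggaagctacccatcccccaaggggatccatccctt
Ltf: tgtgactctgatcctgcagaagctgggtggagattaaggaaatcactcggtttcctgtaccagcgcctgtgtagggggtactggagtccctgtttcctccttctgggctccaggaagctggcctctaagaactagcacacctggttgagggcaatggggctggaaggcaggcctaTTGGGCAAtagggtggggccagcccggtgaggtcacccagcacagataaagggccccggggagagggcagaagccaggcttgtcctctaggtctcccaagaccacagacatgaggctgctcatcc
Lcn2: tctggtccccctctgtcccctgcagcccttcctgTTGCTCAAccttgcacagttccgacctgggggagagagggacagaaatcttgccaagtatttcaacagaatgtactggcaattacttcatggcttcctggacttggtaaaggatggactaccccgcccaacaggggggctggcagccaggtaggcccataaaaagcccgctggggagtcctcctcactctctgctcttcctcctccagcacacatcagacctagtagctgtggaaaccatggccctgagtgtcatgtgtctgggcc
The PU.1 letters were present in 4 of the 10 promoters (*Mpo*, *Elane*, *Prtn3* and *S100a8*) and in 3.2% of 32851 promoters of the same length. The C/EBP letters were present in 4 others (*Ltf*, *Lcn2*, *Ngp* and *S100a9*) and in 10.8% of all promoters, and no promoter of the 10 held both. *Camp* and *Ctsg*, which are not shown, held neither string in this window. Every promoter shown held a match, so the shown set does not stand for all 10. The matches are a description of the letters and were not tested as binding sites.

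Granulocytes were called as cells with at least 1% of their UMIs (unique molecular identifiers, 1 per captured transcript) in *S100a8*, *S100a9*, *Camp* and *Ngp*. Of 84758 kept cells, 2200 met this rule. A cell was called primary-high when *Mpo*, *Elane*, *Prtn3* and *Ctsg* held at least 1% of its UMIs, which 206 cells did; 191 of these were also granulocytes by the rule and 15 were not. Of markers outside the 10 genes, 12 of 12 of granulocytes and 7 of 7 of precursors were higher in granulocytes than in collagen-gated cells, and 0 of 8 stromal markers were. So were 6 of 6 basophil or mast cell, 5 of 6 monocyte, 5 of 7 B-cell and 4 of 6 T-cell markers. Against leukocyte-gated cells, 11 of 12 granulocyte and 6 of 7 precursor markers were higher in granulocytes (not *Mmp9* and *Cebpa*), as were 8 of 8 stromal, 2 of 6 monocyte, 4 of 7 B-cell and 1 of 6 T-cell markers and 0 of 7 macrophage and 0 of 6 basophil or mast cell markers. Some droplets were mixed: 442 granulocytes (20.1%) also had collagen genes at 2% of UMIs or more, and 7 of 7 macrophage markers were higher in granulocytes than in collagen-gated cells (*C1qa* 35.6 against 17.0 CPM, UMIs of a gene per 1000000 UMIs), although far below the 2640 CPM of leukocyte-gated cells. Just under the threshold, 399 cells that were not primary-high held 0.5 to 1% of UMIs in the 4 rule genes, with *S100a9* at 2500 CPM and 80.2% of them with collagen genes at 2% or more; just above it, 327 cells held 1 to 2%, with *S100a9* at 5320 CPM and 69.4%. The pools differed greatly in granulocytes, from 2 cells (0.0296%, exact 95% binomial interval 0.00358 to 0.107) in pool 13 to 858 cells (12.3%, 11.5 to 13.1) in pool 18, with kept UMIs of 37714768 to 73490914 per pool. Both runs of a library held 98.2% of the run 1 barcodes, and 2089 granulocytes were called in both; run 1 was used. Of 83802 distinct barcode sequences, 949 occurred in more than 1 pool. The limits on cell quality removed 131 of 340 primary-high barcodes, 83 of them with over 15% *Rps* UMIs, against 250 of 2533 granulocytes by the rule.

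Within granulocytes, the S100 genes, *Ngp*, *Camp* and *Lcn2* stood above the primary granule genes in all 13 pools with at least 10 granulocytes. *Ltf* overlapped with the primary granule genes. In pool 10, with 7 granulocytes, *Lcn2* (2227 CPM) was below *Prtn3* (8274), *Elane* (6542) and *Mpo* (5388). Levels are CPM of the summed granulocytes of a pool, given for the 13 pools with at least 10 of them, and since the assay counts transcript ends, levels of different genes were set side by side without a length correction. *S100a9* ran from 66920 to 161400 CPM (median 87470) and was above *S100a8* (52950 to 118300, median 73590) in 11 of 13 pools. *Ngp* ran from 18270 to 51620 CPM (median 32970) and *Camp* from 12470 to 59460 (median 28450), and *Ngp* was the higher of the pair in 9 of 13 pools. These 4 genes define the cells, so their height is a consequence of the rule and only their spread is of interest.

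The genes that the rule did not use kept their order over pools in some pairs and not in others. *Lcn2* ran from 6845 to 17260 CPM (median 9912), and each of the 13 pools was above the highest value of *Ltf* (1467 to 4725, median 2337). The difference, on log2(CPM + 1), was 2.08 (SD 0.46, n = 13 pools), with *Lcn2* higher in 13 of 13 (exact two-sided sign-flip permutation test, p = 0.000244, the smallest that 13 pools can give). Among the primary granule genes, *Prtn3* ran from 667.5 to 4552 CPM (median 1543) and *Elane* from 133.5 to 3673 (median 1267). Over all 13 pools *Elane* and *Prtn3* did not differ beyond their spread, with a difference of -0.26 (SD 0.67, n = 13, exact permutation p = 0.126) and *Elane* the lower in 9 of 13 pools. Without pool 4 alone the difference was -0.33 and passed the test, and in pools with at least 20 granulocytes it was -0.06 and did not. *Mpo* ran from 0 in pool 3, which had 10 granulocytes, to 1934 CPM in pool 9 (median 610.7), and *Ctsg* from 76.3 to 894 (median 265.8).

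*Elane* and *Prtn3* were above both *Mpo* and *Ctsg* in every pool. The differences were 1.82 for *Elane* over *Mpo* (SD 1.67), 2.09 for *Elane* over *Ctsg* (SD 0.65), 2.09 for *Prtn3* over *Mpo* (SD 2.29) and 2.35 for *Prtn3* over *Ctsg* (SD 0.60), each in 13 of 13 pools (exact permutation p = 0.000244, n = 13). *Mpo* was above *Ctsg* in 11 of 13 pools, but the mean difference of 0.26 (SD 2.04) was within the spread (exact permutation p = 0.797, n = 13). Pool 3, with no *Mpo* UMI, decided that value: without it alone the difference was 0.81 and passed the test, and in pools with at least 20 granulocytes it was 0.93 and passed. In the same pools *Elane* over *Mpo* was 1.26 and *Prtn3* over *Mpo* 1.32, and both still passed. In all, 7 pairs were tested, and p-values are unadjusted. Across these groups, *Ltf* had the lowest level of the secondary granule genes and was above *Elane* in 10 of 13 pools and above *Prtn3* in 9, so that the weakest secondary gene and the strongest primary genes overlapped.

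Granulocytic droplets (2215, either class) were spread along the primary granule share. Most of them, 1766, held under 0.1% of their UMIs in *Mpo*, *Elane*, *Prtn3* and *Ctsg*, while 243 held 0.1 to 1%, 174 held 1 to 3% and 32 held 3% or more. *Ltf* fell along these steps from 3450 to 415 and 10.9 CPM, and in the last step 0 of 32 cells had an *Ltf* UMI, which allows a share of cells with a UMI of up to 9.38% by counting error alone and sets no limit on cells expressing the gene. *Lcn2* fell from 12800 to 4910, 755 and 257 CPM. *Camp* and *Ngp* did not begin to fall until the 1 to 3% step: *Camp* was at 25000, 26400, 8710 and 4660 CPM, and *Ngp* at 30000, 30200, 16900 and 12800. *S100a8* was at 83700, 58600, 32900 and 36400 CPM and *S100a9* at 104000, 76800, 41600 and 39100, so the fall was not particular to the secondary granule genes. In these sums over pools, secondary granule transcripts went down in the order *Ltf*, *Lcn2*, *Camp* and *Ngp* as the primary share went up. The pools were not mixed alike along the steps. Pool 18 gave 41.1% of the granulocytes that were not primary-high, but 17.3% of those that were. Its primary-low granulocytes had 13870 CPM of *Camp* and 20270 of *Ngp*, against medians of 32020 and 37210 over 13 pools. The part of this mix in the steps and in their order was not tested. The steps are a description, since the primary share itself sorts the cells and *S100a8*, *S100a9*, *Camp* and *Ngp* belong to the rule; cells of the middle steps were also deeper, with medians of 2648.5, 4884, 8373.5 and 6515.5 UMIs.

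**Figure D1:**
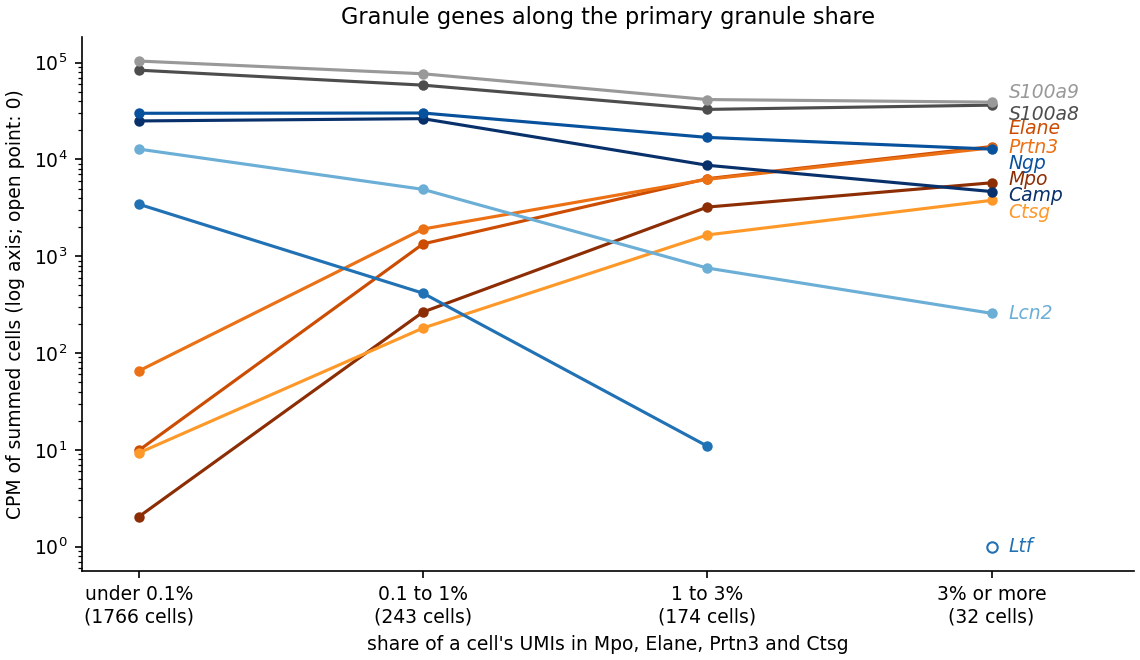
CPM (log axis) of the 10 genes in granulocytic droplets summed by the share of UMIs in *Mpo*, *Elane*, *Prtn3* and *Ctsg*; orange and brown lines are primary granule genes, blue lines secondary granule genes and gray lines S100 genes. *Ltf* fell from 3450 CPM to 0 (open point) while *Ngp* fell only from 30000 to 12800 CPM.

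Cell by cell, *Mpo* and *Ltf* were rarely found together. Of 214 granulocytic droplets with at least 5 *Mpo* UMIs, 214 had *Elane* and 169 had *Lcn2*, but 13 had an *Ltf* UMI and 0 had 5 of them, which allows a share of droplets with 5 of up to 1.4% (counting error only). *Elane* and *Prtn3*, the neighbors on chromosome 10, were detected together: all 310 granulocytic droplets with at least 5 *Elane* UMIs had *Prtn3*, of which 269 also had *Mpo*. This was not particular to the neighbors, since all 214 droplets with at least 5 *Mpo* UMIs had *Prtn3* too. *Ltf* was found in 85 of 370 granulocytic droplets with at least 5 *Prtn3* UMIs and in 41 of 310 for *Elane*, a difference that was not tested. At least 5 *Ltf* UMIs were held by 41 of the 370 and by 9 of the 310, so their complete absence was particular to *Mpo*. Of the 214 *Mpo* droplets, 82 had at least 5 *Lcn2* UMIs. *Camp* and *Ngp* were also detected together in granulocytic droplets (1459 of 1462 with at least 5 *Camp* UMIs had *Ngp*), as were *Ltf* and *Lcn2* (869 of 869). For comparison, *Ngp* had a UMI in 93.1%, *Lcn2* in 90.1% and *Ltf* in 62.5% of all 2009 granulocytes that were not primary-high.

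Primary-high cells were then compared with primary-low granulocytes within 8 pools that had at least 10 of both, which asks what else differed with the primary granule program. *Ltf*, used by neither gate, was at 0 to 18.8 CPM (median 8.55) in primary-high and 2150 to 4950 CPM (median 3070) in primary-low cells. The groups did not overlap in any pool, and 2 of the 8 primary-high sums (pools 9 and 14) held no *Ltf* UMI. With the pool as a block, edgeR's quasi-likelihood fit over all genes gave the following. The log2 difference of *Ltf* was -8.56 (SE 0.23, adjusted p = 2.94e-16). With 0 to 6 *Ltf* UMIs in each primary-high sum against 617 to 6916 in each primary-low sum, *Ltf* passed the filter on low counts through the primary-low cells, and its fitted fold depends on the prior count. *Lcn2*, also used by neither gate, was at 422 to 1010 CPM (median 573) against 9590 to 18000 (median 11600), again without overlap. Its log2 difference was -4.54 (SE 0.19, adjusted p = 4.17e-13), lower in 8 of 8 pools. These calls have to be read against a background in which 53.2% of 5204 tested genes were called (23.8% higher and 29.3% lower in primary-high cells), with a median log2 difference of -0.03 over all genes. How many of all tested genes had values without overlap between the classes was not counted, so the lack of overlap is a description. Primary-high droplets were also deeper, with medians of 7953 UMIs (both classes at once) and 15091 UMIs (primary only) against 2734, and lower in collagen genes (*Col1a1* 904 against 4090 CPM); the part of either in these differences was not tested.

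**Figure D2:**
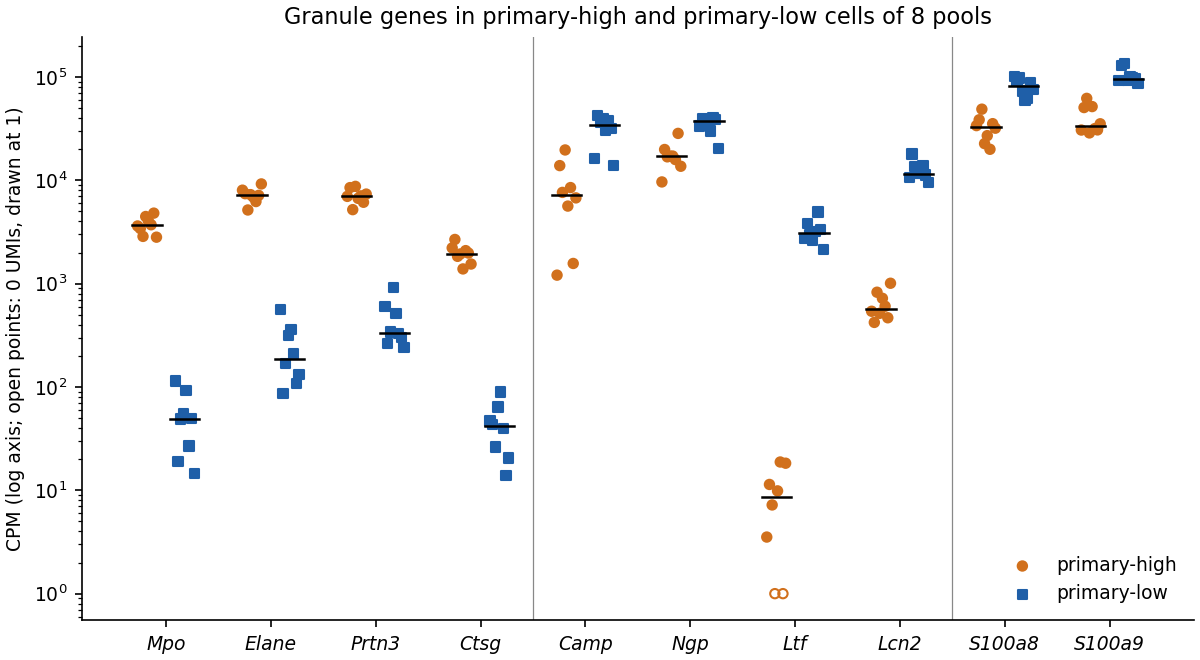
CPM (log axis) of each gene in primary-high (orange circles) and primary-low (blue squares) cells, 1 point for each of 8 pools, with bars at the median and open points for sums without a UMI, drawn at 1. The points of *Ltf* and *Lcn2* do not overlap between classes, whereas those of *Camp* and *Ngp* overlap across pools, both being lower in primary-high cells in 8 of 8 pools.

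The 8 genes of the gates are given without a test. *Mpo* ran from 2820 to 4820 CPM in primary-high and 14.6 to 114 in primary-low cells, *Elane* from 5170 to 9240 and 86.9 to 566, *Prtn3* from 5210 to 8750 and 242 to 925, and *Ctsg* from 1390 to 2680 and 14.0 to 89.7. *Camp* was between 1210 and 19700 CPM in primary-high and between 13900 and 42300 in primary-low cells, and *Ngp* between 9660 and 28500 and between 20300 and 40400. The ranges of *Camp* and of *Ngp* overlap across pools, but within a pool each was lower in primary-high cells, in 8 of 8 pools. *S100a8* (20000 to 48900 against 59900 to 101000) and *S100a9* (28800 to 62200 against 86300 to 136000) were lower in primary-high cells of every pool.

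Other genes of the granulocyte series separated in the same places. Of 8 further primary granule and promyelocyte genes, 6 were higher in primary-high cells and 0 lower (median log2 difference 2.3), against 23.8% higher over all genes. They were led by *Ms4a3* (2.93, SE 0.16, adjusted p = 1.97e-11), a marker of granulocyte-monocyte progenitors, *Plac8* (2.66, SE 0.13), the serine protease gene *Prss57* (2.61, SE 0.20) and the cystatin gene *Cst7* (2.55, SE 0.38), whereas *Cebpa* (-0.27) and *Serpinb1a* (-0.12) were not called. Of 11 further specific and gelatinase granule genes, 9 were lower and 1 higher (median -1.48), against 29.3% lower over all genes. The collagenase gene *Mmp8* (-6.80, SE 0.33), the gelatinase gene *Mmp9* (-5.64, SE 0.37), *Anxa1* (-4.08, SE 0.24) and the surface protein gene *Cd177* (-3.44, SE 0.22) fell furthest. *Mmp8* and *Mmp9* had medians of 0 and 1.52 CPM in primary-high cells. Both passed the filter on low counts through the primary-low cells, and their fitted folds depend on the prior count. Without pool 18 *Mmp8* was at -8.21, and without pool 9 *Mmp9* was at -6.56. *Fcnb*, a ficolin, was the exception and was higher (0.78, SE 0.21, adjusted p = 0.00389), at 91.2 to 466 CPM against 44.4 to 199 with overlap; it is named here after its value was seen. *Cebpe*, whose product drives the secondary granule program, was at 198 to 455 CPM in primary-high and 100 to 298 CPM in primary-low cells and was not called (0.25, SE 0.17, adjusted p = 0.221).

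All 10 mature neutrophil genes were lower (median -4.8), against 29.3% lower over all genes. They were led by the formyl peptide receptor genes *Fpr2* (-7.33, SE 0.33) and *Fpr1* (-6.05, SE 0.48), *Retnlg* (-6.98, SE 0.39) and *Stfa2l1* (-6.40, SE 0.40). Many primary-high sums held no UMI of *Mmp8*, *Fpr2*, *Stfa2l1* or *Fpr1*, with medians of 0 CPM. These genes passed the filter on low counts through the primary-low cells, and their fitted folds and rank depend on the prior count. *Retnlg*, *Ly6g* and *Cxcr2* were also low in primary-high cells, with medians of 5.49, 1.8 and 3.64 CPM. The count of 10 lower genes and the median of -4.8 rest in part on such genes. A single pool moved some of them: without pool 18 *Retnlg* was at -8.61 and *Fpr1* at -8.25, and without pool 8 *Stfa2l1* was at -8.53. Against 29.3% lower and 23.8% higher over all genes, 4 of 8 cell cycle genes were lower in primary-high cells and 0 higher. They were *Mki67* (-1.27, SE 0.18), *Pclaf* (-0.92, SE 0.22), *Top2a* (-0.89, SE 0.17) and *Birc5* (-0.47, SE 0.18, adjusted p = 0.0341), the last of which was lost when pool 7, 8, 9, 12 or 14 was left out. Of the 6 genes of the monocyte list, which does not hold *Plac8* (higher, given above), 3 could be tested and 2 were lower, *Klf4* (-1.88, SE 0.33) and *Ly6c2* (-0.93, SE 0.31), the latter lost without pool 12; *Csf1r*, *Ccr2* and *Irf8* were too low to test. These counts stand beside the background and are descriptions.

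Outside granulocytic droplets, the 10 genes were rare, and the droplet classes that held their UMIs differed from gene to gene. Collagen-gated cells (42368 cells with at least 2% of UMIs in collagen genes and *Sparc*, and these at least 20 times the leukocyte genes) held 1.2 to 4.83% of all UMIs of 9 of the genes, but 29.4% of all *Mpo* UMIs. The share of collagen-gated cells with a UMI was 16% for *S100a9*, 13.3% for *S100a8*, 5.87% for *Mpo* and 0.656% for *Ltf* (exact 95% binomial intervals 15.7 to 16.4, 13.0 to 13.7, 5.65 to 6.1 and 0.581 to 0.738). Thinned to 1000 UMIs per cell, which left out 2765 shallower cells, these shares were 3.22%, 2.74%, 0.571% and 0.136%. In leukocyte-gated cells (6058 cells, median 4924.5 UMIs against 12713 in collagen-gated cells), the thinned share was 2.72% for *S100a9* and 5.4% for *S100a8*, but 0.123% for *Mpo*. *S100a8* and *Mpo* thus stood in opposite order between both classes at 1 depth; these shares pool the cells of all libraries and were not tested over pools.

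In collagen-gated cells, the level of the secondary granule and S100 genes followed the granulocyte share of the pool. *S100a9* ran from 0.264 CPM in pool 3 (0.22% granulocytes) to 105.0 CPM in pool 18 (12.3%), with a median of 10.1, and *S100a8* from 0.407 in pool 3 to 101 CPM in pool 18. *Camp* ran from 0.356 to 16.7 CPM, *Ngp* from 0.0473 to 30.6, *Lcn2* from 0.122 to 20.03, and *Ltf* from 0 in 4 pools to 3.43, the highest value being in pool 18 each time. *Mpo*, by contrast, stayed between 2.84 and 10.7 CPM (median 5.84) and was above *S100a9* in the 4 pools with the lowest shares (pools 1, 3, 10 and 13). Pool 10 (0.149% granulocytes) had 8.90 CPM of *Mpo* and 0.356 CPM of *S100a9*.

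Across the 16 pools, log2(CPM + 1) in collagen-gated cells was correlated with the log2 granulocyte share, which is counted in other droplets of the same library. Pearson's r was 0.92 for *S100a9*, 0.89 for *Camp*, 0.88 for *Ngp* and 0.88 for *S100a8* (Spearman's rho 0.92, 0.91, 0.92 and 0.87), given without a test because these 4 genes define the share. After the data had been seen, the share was therefore also counted from the granulocyte-like clusters 13 and 15, made without the 10 genes (2300 cells, 0.0837 to 13.2% of a pool), with no class defined by the 10 genes. Cluster 15 was mixed: of its 692 cells, 394 were granulocytes by the rule, and 78% of its cells came from pool 18. Its mean z-score over clusters was 0.68 for collagen genes with *Sparc* and 0.39 for leukocyte genes. The part of cluster 15 in this share was not tested. With this cluster share, r was 0.90 for *S100a9*, 0.89 for *Camp*, 0.90 for *Ngp* and 0.87 for *S100a8* (two-sided permutation test, p = 1e-05, 2e-05, 1e-05 and 3e-05; 1e-05 is the smallest that 100000 resamples can give). For the secondary granule genes outside the rule, r with the share by the rule was 0.77 for *Ltf* (permutation p = 0.00052, rho 0.92, p = 1e-05) and 0.76 for *Lcn2* (permutation p = 0.00069, rho 0.85, p = 9e-05), and with the cluster share 0.79 and 0.80 (permutation p = 1e-04 and 0.00021). On the log2 scale, the shares of pools 1 and 13 lie farthest from the median, and in percent those of pools 11 and 18, a choice compared after the data had been seen. Without pools 1 and 13, r was 0.90 to 0.95 for the first 4 genes, 0.80 for *Ltf* and 0.83 for *Lcn2*, and without pools 11 and 18 it was 0.84 to 0.89, 0.72 and 0.69. Among the primary granule genes, *Prtn3* (r = 0.58, permutation p = 0.0198, rho 0.56, p = 0.0253) and *Elane* (r = 0.55, permutation p = 0.0248, rho 0.63, p = 0.0117) passed over all pools. Without pools 1 and 13, r was 0.60 for *Prtn3* (permutation p = 0.0231) and 0.57 for *Elane* (permutation p = 0.0328), but without pools 11 and 18 it was 0.41 (permutation p = 0.145) and 0.40 (permutation p = 0.155), and both were also lost without pool 18 alone (r = 0.49, permutation p = 0.0636, and r = 0.47, permutation p = 0.0692). *Ctsg* (r = 0.47, permutation p = 0.069, rho 0.55, p = 0.0318) and *Mpo* (r = 0.35, permutation p = 0.184, rho 0.34, p = 0.199) did not pass on Pearson's r. Without pools 1 and 13, *Ctsg* passed (r = 0.65, permutation p = 0.0125) and *Mpo* did not (r = 0.36, permutation p = 0.207); without pools 11 and 18, r was 0.23 and 0.17. With the cluster share, r was 0.45 for *Elane* (permutation p = 0.084), 0.48 for *Prtn3* (permutation p = 0.0626), 0.51 for *Ctsg* (permutation p = 0.0459) and 0.33 for *Mpo* (permutation p = 0.208). The difference between the gene groups was not tested. The tests are unadjusted, and no batch beyond the pool is given in the labels. The mean depth of collagen-gated cells, 5911 to 23720 UMIs, had r = 0.44 with the share, which did not pass (permutation p = 0.0856, rho 0.15, p = 0.571). Counted as UMIs per 1000 cells instead of CPM, a unit chosen after seeing the data, r was 0.55 for *Mpo* (permutation p = 0.0267), 0.63 for *Ctsg* (permutation p = 0.00985), 0.70 for *Elane* (permutation p = 0.00257) and 0.74 for *Prtn3* (permutation p = 0.00105).

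**Figure D3:**
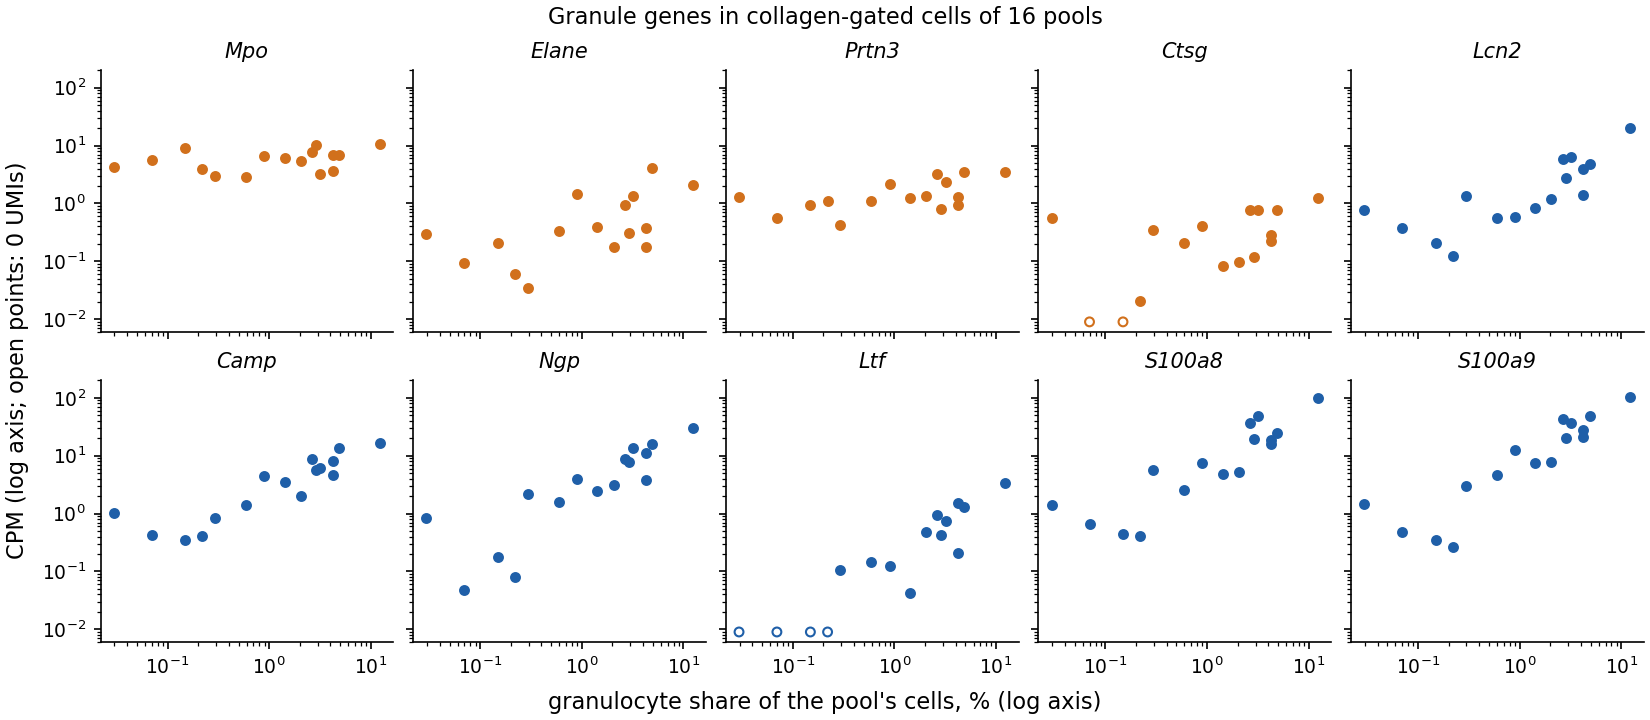
CPM of each gene in collagen-gated cells (log axis) against the granulocyte share of the pool's cells in percent (log axis), 1 point for each of 16 pools; orange points are primary granule genes, blue points the others, and open points pools with 0 UMIs. *S100a9* spans 0.264 to 105.0 CPM along the share, and *Mpo* stays between 2.84 and 10.7 CPM.

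The slopes were also fitted over all genes with edgeR's quasi-likelihood test. Of 14731 genes, 7 were called (0.0475%), all higher with the share and 0 lower, and 1128 had an unadjusted p under 0.05. Of the 7, 6 were among the 10 granule genes, and 4 of these 6 also define the share. The log2 change per doubling of the share was 1.18 for *Ltf* (SE 0.13, adjusted p = 0.000592), 0.91 for *S100a9* (SE 0.11), 0.84 for *S100a8* (SE 0.11), 0.78 for *Ngp* (SE 0.11), 0.63 for *Camp* (SE 0.08) and 0.62 for *Lcn2* (SE 0.11, adjusted p = 0.0400). A slope of 1 would be a level in proportion to the share. The seventh gene, named after its value was seen, was *Retnlg* (1.37, SE 0.23, adjusted p = 0.0367), a mature neutrophil gene. The primary granule genes were not called, with 0.49 for *Elane* (SE 0.14, adjusted p = 0.624), 0.23 for *Ctsg* (SE 0.13, adjusted p = 0.697), 0.21 for *Prtn3* (SE 0.07, adjusted p = 0.624) and 0.09 for *Mpo* (SE 0.05, adjusted p = 0.693); without pool 13 *Ctsg* was at 0.59, also not called. The call of *Lcn2* was the least secure and was lost when any 1 of pools 1, 2, 3, 4, 5, 6, 7, 9, 10, 11, 12, 14 or 18 was left out (slope 0.52 to 0.66 in these). Those of *Ltf*, *S100a8*, *S100a9*, *Ngp* and *Camp* held in all 31 alternatives, with the slope of *Camp* at 0.40 when clusters replaced the collagen gate. Of the 6 genes, *S100a8*, *S100a9*, *Ngp* and *Camp* also define the share, so their slopes above are given without a p-value. With the cluster share described above, all 6 were called, with slopes of 1.37 for *Ltf* (adjusted p = 0.000356), 0.98 for *S100a9* (adjusted p = 0.0074), 0.98 for *Ngp* (adjusted p = 0.00257), 0.90 for *S100a8* (adjusted p = 0.0216), 0.84 for *Lcn2* (adjusted p = 0.0074) and 0.83 for *Camp* (adjusted p = 0.00257), and the primary granule genes were not.

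The ratio of each gene to *S100a9* was compared between collagen-gated cells and granulocytic droplets of the same pool. *S100a8*, *S100a9*, *Camp* and *Ngp* took part in selecting the granulocytes, and *S100a9* is in every ratio, so that the selection bears on every gene's value. The log2 ratio in collagen-gated cells minus that in granulocytic droplets had a mean over n = 13 pools of 0.09 for *Camp* (SD 0.65), -0.00458 for *Ngp* (SD 0.57) and 0.09 for *S100a8* (SD 0.35), which are given without a test because of that selection. *Ltf* was at -0.03 (SD 0.93, exact sign-flip permutation p = 0.914, n = 13) and *Lcn2* at 0.45 (SD 0.81, exact permutation p = 0.0625, n = 13), neither of which passed. The primary granule genes stood above the ratio. *Mpo* was higher in 13 of 13 pools, by 2.45 to 17.9 (median 5.37), with a mean of 6.28 (SD 3.88, exact permutation p = 0.000244); the highest value is that of pool 3, whose granulocytes held no *Mpo* UMI, so that it rests on the 0.5 UMI added to every sum. *Prtn3* was higher in 13 of 13 pools, by a mean of 2.70 (SD 2.39, exact permutation p = 0.000244), and *Ctsg* in 12 of 13, by 2.49 (SD 2.24, exact permutation p = 0.000732). *Elane* was higher in 8 of 13 pools, by 1.24 (SD 2.36, median 0.52, exact permutation p = 0.0332), and this was lost without any 1 of pools 2, 3, 4, 5, 11, 17 or 18 (0.66 without pool 3) and in pools with at least 20 granulocytes (mean 0.68). In those pools the means were 4.97 for *Mpo*, 2.01 for *Prtn3* and 1.74 for *Ctsg*, and all 3 passed. With granulocytes taken from clusters 13 and 15, which the 10 genes did not select (14 pools), the means were 6.24 for *Mpo* (exact permutation p = 0.000122), 2.45 for *Prtn3* (exact permutation p = 0.000366), 2.22 for *Ctsg* (exact permutation p = 0.00061) and 1.00 for *Elane* (exact permutation p = 0.202). There *Camp* was at -0.03, *Ngp* at -0.14, *S100a8* at 0.10, *Ltf* at -0.31 and *Lcn2* at 0.42, and none of these passed (lowest exact permutation p = 0.0892). The p-values are unadjusted.

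**Figure D4:**
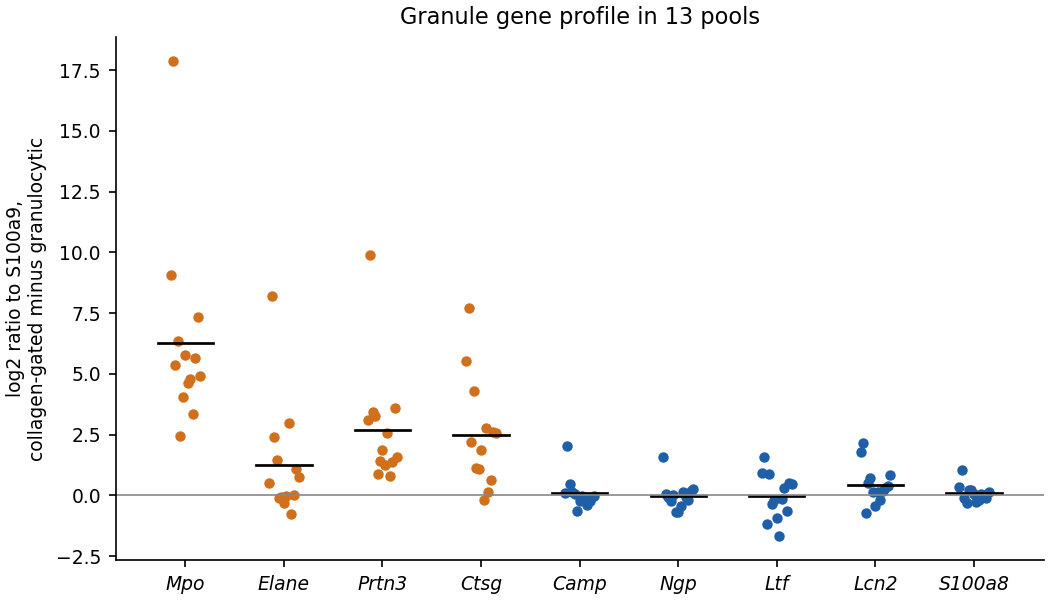
Log2 ratio of each gene's UMIs to those of *S100a9* in collagen-gated cells minus the same in granulocytic droplets, 1 point for each of 13 pools with bars at the mean; 0 is the granulocyte ratio. *Mpo* lies above 0 in all 13 pools, with a mean of 6.28 that pool 3 raises (median 5.37; mean 4.97 in pools with at least 20 granulocytes), while *Camp*, *Ngp*, *Ltf* and *S100a8* scatter around 0.

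*Mpo* in collagen-gated cells also behaved unlike the other genes along cell depth. When the collagen-gated cells of each pool were split into 3 equal parts by UMIs, the deepest part had 7.1 times the UMIs per cell of the shallowest part. *Mpo* rose by more than this, from 16.6 to 178 UMIs per 1000 cells (10.7 times, higher in 16 of 16 pools). For the other 9 genes the pooled ratio was 0.63 (*Elane*) to 2.11 (*Prtn3*). *Elane* was nevertheless higher in the deepest part in 10 of 16 pools, and its ratio without pool 11, left out after the data had been seen, was 1.15. Over pools left out in turn, the ratio of *Mpo* was 9.37 to 11.7. *S100a9* was at 229 and 322 UMIs per 1000 cells (1.41 times). In CPM, *S100a9* went from 61.6 in the shallowest to 12.2 in the deepest part and *Mpo* from 4.48 to 6.74. Depth and cell state were not separated here. *Mpo* overlaps *Gm11505* on the other strand, and whether any of these UMIs came from it was not tested.

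**Figure D5:**
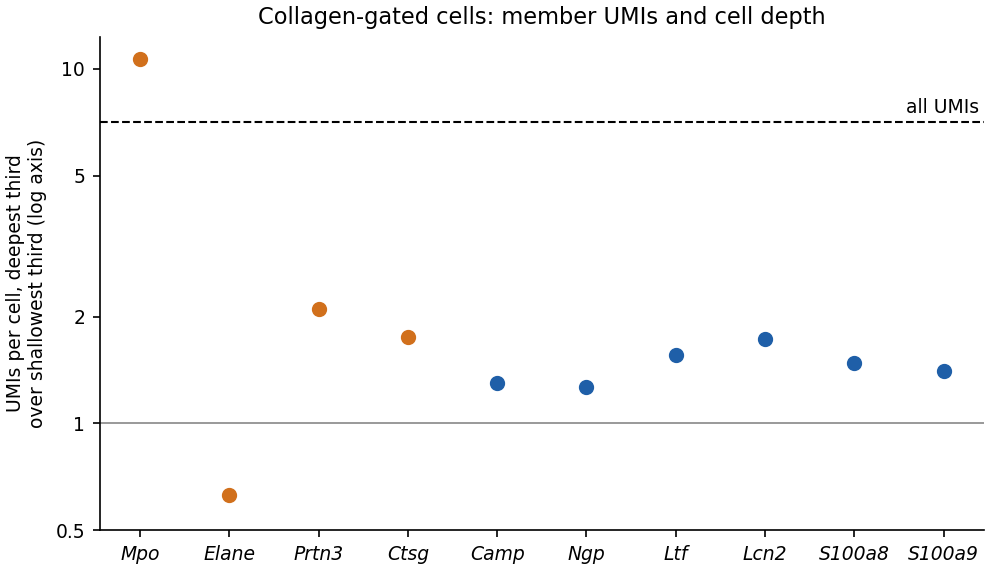
UMIs per collagen-gated cell in the deepest part over the shallowest part of 3 (log axis) for each gene, with the dashed line at the ratio of all UMIs (7.1) and the gray line at 1. *Mpo* (10.7) lies above the dashed line, and the other 9 genes lie between 0.63 (*Elane*; 1.15 without pool 11) and 2.11 (*Prtn3*).

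Clusters, made without the 10 genes, showed where transcripts appeared away from granulocytes. Droplets outside the granulocytic classes with at least 5 UMIs of a gene and at most 1 of *S100a9* (for *S100a9*, at most 1 of *S100a8*) were counted; this rule was set after the data had been seen. *Mpo* had 71 such droplets, 34 of them in osteoblast-like cluster 2, over 12 pools and with up to 13 UMIs. All 34 had *Ibsp* (bone sialoprotein) and *Col1a1*, and 2 had a UMI of *Prtn3*. Of *Elane* or *Ctsg*, 0 had a UMI, which allows a share of droplets with a UMI of up to 8.82% for either. The cluster as a whole had 8.91 CPM of *Mpo* and 0.43 CPM of *Elane*, against 780.2 and 1613 CPM in granulocyte-like cluster 13.

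*Ctsg* had 63 such droplets, which held 62.7% of its UMIs outside the granulocytic classes. Of them, 30 were in granulocyte-like cluster 13, of which 23 had *Ms4a3*, 22 *Mpo*, 14 *Prtn3* and 10 *Elane*, and 20 had the mast cell protease gene *Cpa3* and 18 *Ms4a2*. Another 13 were in B-cell-like cluster 19, and all 13 had *Cpa3*, *Fcer1a* and *Hdc* and 10 had the chymase gene *Cma1*. Of the B-cell genes, 0 had *Cd79a* and 7 had *Igkc*, with 16 UMIs in all. Apart from *Igkc*, these droplets went against the name of their cluster. A further 9, all of pool 8, were in T-cell-like cluster 16 and all had *Gzmb*, *Gzmc*, *Prf1* and *Cd3g*, genes of cytotoxic lymphocytes, while 8 had the basophil protease gene *Mcpt8* and 6 had *Cpa3*. *Ltf* had 9 such droplets, all in cluster 19, in 4 pools, each with the plasma cell genes *Igkc*, *Jchain* and *Mzb1* and with up to 10 *Ltf* UMIs, and 0 had *Cpa3*. *Prtn3* had 36, of which 21 were in cluster 13 and 12 in unnamed cluster 12, led by the antigen presentation genes *H2-Aa* and *Cd74* and by *Ccl8*, where 12 had *Plac8*, 11 *Ly6c2* and 10 *Ccr2*, and 8 had *Ctsg*, 7 *Mpo*, 6 *Ms4a3* and 4 *Elane*.

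Among the secondary granule genes, *Camp* had 17 such droplets, 9 in cluster 5 and 6 in cluster 20, the first adipogenic stromal-like and the second unnamed and led by *Cfd*, *Retn* and *Cidec*, genes of adipocytes. All 15 had *Adipoq* and *Fabp4*, 0 had *Ngp* or *Ltf*, and the highest held 31 *Camp* UMIs. *Lcn2* had 91: 38 in cluster 12, of which 34 were from pool 18, 22 in cluster 5, 13 in unnamed cluster 4 with up to 410 UMIs, and 10 in cluster 20, all 10 with *Adipoq*, *Plin1*, *Retn* and *Hp*. Of the 38 in cluster 12, all had *Chil3* and *Vcan*, 34 had *Mmp8*, 33 *Saa3*, 33 *Ly6c2*, 8 *Csf3r* and 1 *Ly6g*. *S100a8* had 185, of which 111 were in cluster 12. Of these 111, 107 had *Chil3*, 89 *Saa3*, 84 *Vcan*, 78 *Mmp8*, 74 the monocyte list gene *Ly6c2*, 32 *Csf3r* and 0 the neutrophil gene *Ly6g*. *Ngp* had 5 such droplets of 73 outside the granulocytic classes with at least 5 of its UMIs, and *Elane* had 10 of 21. *S100a9* without *S100a8* was found in 74 droplets, 40 of them of pool 11.

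In leukocyte-gated cells, all 7 genes that could be tested rose with the granulocyte share, and 4 of the 7 also define it. The background was 190 of 9418 genes called (2.02%, with 1.49% higher and 0.531% lower). The log2 change per doubling was 1.2 for *Ctsg* (SE 0.23, adjusted p = 0.00966), 1.15 for *S100a9* (SE 0.10), 0.99 for *Lcn2* (SE 0.13, adjusted p = 0.000584), 0.87 for *Ngp* (SE 0.11), 0.80 for *Camp* (SE 0.13), 0.74 for *Prtn3* (SE 0.19, adjusted p = 0.0481) and 0.41 for *S100a8* (SE 0.09). *Elane*, *Mpo* and *Ltf* were too low to test. *S100a8*, *S100a9*, *Camp* and *Ngp* define the share, so their slopes above are given without a p-value. With the cluster share in the same edgeR quasi-likelihood test, all 7 were again called. There *S100a9* was at 1.47 (adjusted p = 0.000173), *Ngp* at 0.99 (adjusted p = 0.00455), *Camp* at 0.83 (adjusted p = 0.0323) and *S100a8* at 0.66 (adjusted p = 0.00414). Of 427 *Ctsg* UMIs in these cells, 218 were in pool 8 and 218 in T-cell-like cluster 16, with 122 in cluster 19, and without pool 8 the slope of *Ctsg* was 1.02 and still called. Pools 13 and 18 mattered: *S100a8* was lost without either (0.38 without pool 13, 0.28 without pool 18) and *Lcn2* without pool 18 (0.66), where leukocyte-gated cells had 159 CPM of *Lcn2* against a median of 6.05 over pools. *Prtn3* was lost without any 1 of pools 1, 2, 3, 4, 5, 7, 10, 12, 13, 14 or 18. The number of genes called was 23 without pool 18, 63 without pool 1, 106 without pool 2, 122 without pool 8 and 345 without pool 11. The makeup of the leukocyte-gated cells was not held constant between pools, and its part in these slopes was not tested.

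Over the 20 clusters, the genes whose log2(CPM + 10) was most like the mean of the 4 primary granule genes were *Retnlg* (Pearson's r = 0.987), *Asprv1* (0.985), *Ifitm6* (0.983), *Ms4a3* (0.982) and *Nhsl2* (0.981). For *Camp*, *Ngp*, *Ltf* and *Lcn2* they were *Cd177* (0.977), *Olfm4* (0.969), *Retnlg* (0.967), *Fcnb* (0.948) and *Ly6g* (0.941). All 10 places were thus taken by genes with their highest level in cluster 13, and the correlations over clusters rest on that cluster, which holds both primary-high and primary-low cells. *Retnlg*, first beside the primary genes over clusters, was 183 CPM or less in primary-high cells against 835 to 4180 CPM in primary-low cells.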

How the data were processed

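The data were scRNA-seq counts of BMSC-OBs from 16 pools of DO mice, with 2 runs per pool. Cell Ranger 5.0.0 (genome build mm10) is named in the submitters' processing notes. The authors deposited a matrix of UMI counts, whole numbers without normalization, for every called barcode; the annotation release is not given in the sources used here. The genes, lists, thresholds and tests were chosen with earlier results of these data known.

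Run 1 was used, and the pool was the replicate. Of 107853 barcodes, 18944 were removed by limits (400 to 6200 genes, UMIs of up to 10% mitochondrial, up to 20% *Rpl* and up to 15% *Rps* genes) and 4151 as doublets, scored against simulated doublets (2 per droplet, 30 principal components) and removed at 0.8% per 1000 barcodes. This left 84758 cells. Leukocyte-gated cells had at least 0.5% of UMIs in *Ptprc*, *Laptm5*, *Tyrobp*, *Fcer1g*, *Coro1a* and *Cd52* and belonged to no other class. Collagen genes were *Col1a1*, *Col1a2*, *Col3a1*, *Col5a1*, *Col5a2*, *Col6a1* and *Col6a2*, with *Sparc*; gates left 34117 cells (40.3%) in no class.

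Counts summed per pool and class were tested with edgeR 4.0.16 under R 4.3.3 (TMM scaling after filterByExpr, quasi-likelihood test, Benjamini-Hochberg adjusted p of 0.05 over all genes tested); DESeq2 1.42.0 was an alternative. Tested on simulated data with 200 changed genes, the fits recovered 96.5% (collagen-gated slope, log2 change 0.5, 14731 genes), 98.5% (leukocyte-gated slope, 0.5, 9418 genes) and 100% (primary-high against primary-low, 2, 5204 genes). In the data, a slope of about the simulated size went uncalled (*Elane* in collagen-gated cells). The percentages belong to the simulated setting and set no limit on uncalled slopes. Primary-high and primary-low cells come from the same libraries, which is where the pairing comes from. Deviations of same-numbered pools correlated at 0.139 or more (median 0.235), and those of different pools at a median of -0.0285. For ratios to *S100a9*, 0.5 UMI was added. Clusters (Louvain, python-igraph 0.11.9, 20 clusters, the 10 genes left out of the variable genes, no cell cycle correction) served description only, and were named only with a gene of the name's marker list among their top 10, a requirement set after the data had been seen. Python 3.11.15, numpy 2.4.6, scipy 1.17.1, scikit-learn 1.9.0 and matplotlib 3.10.9 were used. Coordinates are from GENCODE M21 by gene identifier. Genes outside the 10 were named as the 4 largest called changes of each list and the 5 most similar over clusters, other than where stated. P-values measure the spread between pools of mixed mice, and binomial intervals cover counting error only.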

Additional observations from a re-analysis of the deposited data

Results flagged for a closer look

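Among 56 groups of 8 pools (the 10 granule genes and the 18 named list genes, each in primary-high and in primary-low cells), 7 held a pool far from the others by Dixon's criterion (a gap to the nearest pool over 0.526 of the group's range). Chance flags about 1 group in 20, which does not apply to *Fpr1* and *Stfa2l1*, where the other 7 pools are at 0 and any UMI meets the criterion. Pool 18, which holds 858 of the 2200 granulocytes, gave 4 of them in primary-high cells. *Plac8* was lowest there at 1530 CPM, with the next pool at 2830. *Mmp8* was highest there at 27.5 CPM (next 11.3), as were *Retnlg* at 183 CPM (next 24.7) and *Fpr1* at 6.11 CPM (next 0). *Mmp9* in primary-high cells was highest in pool 9 at 15.2 CPM (next 5.7), and *Stfa2l1* in pool 8 at 7.22 CPM (next 0). In primary-low cells, *Pclaf*, a replication gene, was highest in pool 9 at 869 CPM (next 410). The differences of *Plac8*, *Mmp8*, *Mmp9*, *Retnlg*, *Fpr1*, *Stfa2l1* and *Pclaf* between both classes were still called when any 1 pool was left out, but those of *Mmp8*, *Retnlg* and *Fpr1* were then -8.21, -8.61 and -8.25 without pool 18, that of *Mmp9* -6.56 without pool 9 and that of *Stfa2l1* -8.53 without pool 8.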

How the results depend on the processing

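Of 1612 repeats of single-gene values under alternatives (63 values), 1497 kept their direction and their side of the threshold, 76 fell below it, 18 passed it and 21 changed sign. Called genes in the collagen-gated slope numbered 15 without a filter on low counts, 17 with DESeq2, 6 without granulocytes with collagen genes at 2% or more (chosen after seeing the data), and 5 to 9 leaving out each pool. In the leukocyte-gated slope they numbered 118 with a granulocyte threshold of 0.5%, 373 with DESeq2, 319 with granulocytes from clusters (chosen after seeing the data) and 23 to 345 leaving out each pool. For primary-high against primary-low cells they numbered 1301 with the threshold at 2%, 2816 without the collagen-rich granulocytes and 2497 without the replicate block (1126 higher, 1371 lower); without it the calls of *Birc5* (adjusted p = 0.0531) and *Ly6c2* (adjusted p = 0.383) were lost, and no other call changed among the 20 genes repeated (*Ltf*, *Lcn2* and 18 list genes; *Fcnb* was not repeated). The sign changes were of uncalled values near 0: *Elane* minus *Prtn3* was 0.0446 without limits on cells, and ratios to *S100a9* were, for *Camp*, -0.00189 with the collagen gate at 4% and 40 times, -0.0255 with granulocytes from clusters and -0.0919 in pools with at least 20 granulocytes; for *S100a8*, -0.0247 in the latter; for *Ngp*, 0.0192 with a threshold of 2%; for *Ltf*, 0.124 in run 2, 0.0765 with 0.5%, 0.0422 with the gate at 1% and 10 times, 0.0129 with clusters and 0.17 with mixed droplets left out. Leaving out each pool, added later, gave -0.0745 to 0.15 for *Camp*, -0.137 to 0.0523 for *Ngp* and -0.163 to 0.11 for *Ltf*. The causes were not tested. Depth limits *Ltf*, *Elane* and *Ctsg* in cells other than granulocytes and all values of pools 1, 10 and 13, with 5, 7 and 2 granulocytes.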
